A study of Rattus norvegicus with 15 samples.

Results

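The ductus arteriosus and the aorta of rat fetuses were compared 19 days after mating, shortly before term. The comparison rests on 6 of the 15 arrays of the series, chosen by their titles: fetal ductus without added oxygen and fetal aorta, each hybridised once to each of 3 Affymetrix rat chips (A, B and C) that carry different probe sets. Both fetal groups were delivered by caesarean section from dams breathing normal air, and their vessels were dissected, freed of adhering tissue, in cold medium gassed with 2.5% oxygen. The aorta was its arch and thoracic part. The other 9 arrays, given here as context, held ductus taken at day 19 after the mother had been kept in 100% oxygen for 3 h (called oxygen-exposed fetal ductus), and both vessels of vaginally born pups aged 3 h, dissected at 12.5% oxygen. The title of the chip A newborn aorta array counts its 3 h from coitum. Its description gives a newborn after vaginal delivery, and every newborn ratio on chip A rests on that reading. The labels give neither a strain nor the number of animals behind an array.

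The ductus arteriosus joins the pulmonary artery to the aorta and lets the blood of the fetus bypass the lungs. It is a muscular artery, whereas the neighbouring aorta is elastic, and it develops to a large part from neural crest cells. Before birth it is kept relaxed by prostaglandin E and low oxygen, and after birth it contracts in response to oxygen, in which potassium channels, calcium entry and endothelin are known to take part.

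With 1 array per vessel and chip the fetal pair has no replicates, so no test was made on it and the values below are differences between arrays. The values are signal intensities. Of the probe sets on each of the 6 arrays, 50.2% to 51.9% lay above a floor, the pooled median signal of the chip (150 on chip A, 242 on B and 243 on C). A signal under the floor was raised to it before a ratio was taken, which makes such a fold a lower bound, and each gene is represented by the probe set with the highest mean signal over the 5 states, called its brightest. Other probe sets of a gene can differ: of 67 list members and other named genes at least 1.5-fold apart with several compared probe sets, 25 were under 1.5-fold by the mean log2 ratio over them. Such means are given below for many of the genes described. Probe sets of the same gene gave log2 ratios whose differences had a robust SD of 0.25 per ratio (4322 pairs), and the fetal and newborn vessel ratios of a probe set differed with a robust SD of 0.30 per ratio (11370 probe sets). Both are rough guides to the error of one ratio, since the first leaves out the spread between samples and the second holds true differences between stages. The 3′ to 5′ signal ratio of beta-actin control probes, a sign of RNA integrity, was 1.25 to 1.47 in fetal ductus and 1.31 to 1.35 in fetal aorta. It was 2.54 to 3.26 in oxygen-exposed fetal ductus, whose values are given beside the fetal pair with that reservation. The contractile genes of smooth muscle and the endothelial genes Cdh5 and Pecam1 were above the floor in both fetal vessels, as their values below show. In tissue pieces such as these, fewer cells of a type and less RNA per cell cannot be told apart.

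Among 14236 probe sets that exceeded the floor in 1 vessel or both, 143 were at least 2-fold higher in the fetal ductus (1%) and 130 at least 2-fold lower (0.913%). With the floor at 0.5 times its value these counts were 329 and 309, and at 2 times its value they were 74 and 59. Over the 7612 named genes compared, the median log2 ratio was -0.02, and 90% of the genes lay between -0.59 and 0.55. At least 1.5-fold, the step used below for gene lists, 320 genes were higher (4.2%) and 388 lower (5.1%), and at least 2-fold 72 (0.946%) and 73 (0.959%). Of the probe sets at least 2-fold apart, 35 of the higher and 26 of the lower ones were not assigned to a single gene. The 53 measured genes of cytosolic ribosomal proteins had a median of 0.01.

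Muscle genes were higher in the fetal ductus. Of 16 contractile genes of smooth muscle compared, 15 had a higher signal in the fetal ductus, 7 of them at least 1.5-fold, and 0 were at least 1.5-fold lower, against the shares of all genes given above. The median log2 ratio of the list was 0.47 (range -0.10 to 1.04), and every gene of it that was compared lay above the floor on both arrays. Actg2, the gamma actin of smooth muscle, had signals of 10628 in fetal ductus and 12917 in oxygen-exposed fetal ductus against 5158 in fetal aorta, and 16696 in newborn ductus against 6891 in newborn aorta. All 3 ductus arrays thus lay above both aorta arrays, and the fetal ductus was 2.06-fold higher. Tagln (transgelin, an actin-binding protein of smooth muscle) had 16421 in fetal ductus and 20260.4 in oxygen-exposed fetal ductus against 10114 in fetal aorta, and 24564 in newborn ductus against 13678 in newborn aorta. Myh11, which encodes the myosin heavy chain of smooth muscle, had 5415 in fetal ductus and 5511 in oxygen-exposed fetal ductus against 3379 in fetal aorta, and 8143 in newborn ductus against 4080.0 in newborn aorta. Its 3 probe sets went the same way, as did those of Tagln. The calponin Cnn1 was 1.61-fold higher. The tropomyosin Tpm2 was 1.64-fold higher at its brightest probe set, but its 4 probe sets ran from -0.92 to 0.72 (log2) with a mean of -0.04, so they disagreed. By the mean over probe sets, 6 of the 16 contractile genes were at least 1.5-fold higher and 0 lower, where 3.43% of all genes were that much higher and 4.47% lower. Ppp1r12a and Ppp1r14a, which are a subunit and an inhibitor of myosin phosphatase, were 1.82-fold and 1.57-fold higher.

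Other contractile genes differed less between the vessels at their brightest probe sets. Acta2, the alpha actin of smooth muscle, had 20533 in fetal ductus against 16319.7 in fetal aorta, a log2 ratio of 0.33. Its 4 probe sets ran from 0.17 to 0.88, with a mean of 0.42. Myl9, the regulatory light chain, had 18776 against 15859.8 (0.24), and Tpm1 10419.9 against 8554 (0.28). The 6 probe sets of Tpm1 ran from 0.07 to 0.81, with a mean of 0.38. Mylk2 was the single member with a lower signal in fetal ductus (1378 against 1477). It encodes the myosin light chain kinase of skeletal muscle, while Mylk, that of smooth muscle, had a log2 ratio of 0.49. In the newborn pair, which shares no array with the fetal one, the same 16 genes had a median of 0.39. There 6 were at least 1.5-fold higher in ductus and 0 lower, where 6.16% of 7528 genes were that much higher and 5.98% lower. The newborn log2 ratios of Actg2, Myh11, Mylk, Tpm2 and Tagln were 1.28, 1.00, 0.95, 0.92 and 0.84. Over the 5 states, 8 of the 16 genes had all 3 ductus arrays above both aorta arrays, and 0 had them all below, against 680 (8.47%) and 705 (8.78%) of 8027 genes above the floor in any state. The 8 were Actg2, Myh11, Myl9, Myl6, Mylk, Tagln, Tpm2 and Srf, the last a transcription factor on the list.

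Genes of the dense bodies, junctions and intermediate filaments that anchor the contractile apparatus were also higher. Of 29 compared, 27 had a higher signal in fetal ductus, 11 at least 1.5-fold and 0 at least 1.5-fold lower (median 0.41). The mean over probe sets left 8 past 1.5-fold on the higher side. In the newborn pair the median was 0.09, with 7 of 29 at least 1.5-fold higher and 1 lower. Pdlim3, a PDZ and LIM protein that binds alpha-actinin, had 2962 in fetal ductus and 3385 in oxygen-exposed fetal ductus against 916 in fetal aorta, and 5394 in newborn ductus against 2446 in newborn aorta. Synpo2 (synaptopodin 2, an actin-bundling protein) had 2966 in fetal ductus and 2989 in oxygen-exposed fetal ductus against 1249.5 in fetal aorta, and 6009.5 in newborn ductus against 2502 in newborn aorta, though its other probe sets had log2 ratios of 0.38 (a bound) and 0.10 in the fetal pair. For both genes the 3 ductus arrays lay above both aorta arrays, and the fetal ductus was 3.23-fold and 2.37-fold higher (1.49-fold for Synpo2 by the mean over probe sets). Des, the muscle intermediate filament desmin, was 2.62-fold higher (423 against 161), and Vcl (vinculin) 1.92-fold higher (5033 against 2622), with a second probe set at 0.13 and a mean of 0.54 (log2). Actn4, an alpha-actinin, was 2.21-fold higher. Sorbs2, an adaptor of actin attachment sites, had 369 in fetal ductus against 61.3 in fetal aorta, where the aorta value was under the floor (at least 2.46-fold higher). The mean over its 3 probe sets, all with the aorta under the floor, gave a bound of 1.58-fold. Jph2 (junctophilin 2, which ties the sarcoplasmic reticulum to the cell membrane) had 845 in fetal ductus against 112 in fetal aorta. That aorta value was under the floor, while newborn ductus, newborn aorta and oxygen-exposed fetal ductus read 903, 1007 and 1039.5, so for Jph2 the fetal aorta array stood apart from the other 4. Popdc2, a membrane protein of striated and smooth muscle, had 887 in fetal ductus against 256 in fetal aorta, and 592 in newborn ductus against 629.5 in newborn aorta. Vim, Itgb1, Dag1 and Flnc had log2 ratios of 0.20 or less. Members at the floor on both arrays (Dmd, Sgca and Sgcb here) were not compared in any list, and a gene compared through 1 array only had to differ, so the counts describe the compared members.

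Heart muscle genes had the highest median of the 30 lists. All 20 compared were higher in the fetal ductus, 15 of them at least 1.5-fold, with a median log2 ratio of 0.86 over the 20 and 0.76 over the 15 that were above the floor on both arrays. The summed signal of the list was 45232 in fetal ductus and 44207 in oxygen-exposed fetal ductus against 22239.5 in fetal aorta. Myl2, the ventricular myosin regulatory light chain, had 1406 in fetal ductus against 203 in fetal aorta (6.93-fold higher, and 4.33-fold by the mean over 3 probe sets, all higher), and 852 in oxygen-exposed fetal ductus. Tnnt2, cardiac troponin T, had 2343 in fetal ductus against 797 in fetal aorta, and Actc1, cardiac alpha actin, 9621 in fetal ductus against 4285 in fetal aorta. The atrial light chains Myl7 and Myl4 were 1.94-fold and 1.68-fold higher. Myh6 and Myh7, the cardiac myosin heavy chains, were 2.88-fold and 2.97-fold higher. Their sequences are close and the probe sets used are of the family type, so their signals may be shared. A probe set of Myh6 that is not of this type had 540 in fetal ductus against 519 in fetal aorta (log2 ratio 0.06), and the mean over the 5 probe sets of Myh6 was 1.08. Fabp3, the fatty acid-binding protein of heart, was 3.33-fold higher, and Smpx, Myl3 and Pln, which lay under the floor in fetal aorta, were at least 2.27-fold, at least 3.36-fold and at least 1.54-fold higher. By the mean over its 4 probe sets Smpx was 1.63-fold higher. Ryr2, Sln and Mb, which are abundant in heart, were under the floor in both fetal vessels.

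The heart muscle genes ran the other way in the newborn pair. There 1 of 18 compared was at least 1.5-fold higher in ductus and 10 at least 1.5-fold lower, with a median of -0.72, and the summed signal was 23349 in newborn ductus against 30777 in newborn aorta. Myl2 had 247 in newborn ductus against 423 in newborn aorta, Tnnt2 554 in newborn ductus against 1161 in newborn aorta and Actc1 3190.3 in newborn ductus against 5490.1 in newborn aorta. The median of the contractile smooth muscle list was 0.47 in the fetal and 0.39 in the newborn pair. The part of heart muscle RNA in the fetal ratios of that list was not tested. Nor was its part in those of genes that heart and vessel both express, such as Des, Jph2, Popdc2 and Pdlim3. Skeletal muscle genes did not follow: of 12 compared, 1 was at least 1.5-fold higher (Tnni1, 1.58-fold higher) and 2 lower (Tnnc2 and the embryonic myosin Myh3, 1.81-fold lower), with a median of -0.25.

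Nppa, which encodes atrial natriuretic peptide, was 1 of 3 heart genes, with Fabp3 and Tnnc1, for which all 3 ductus arrays lay above both aorta arrays. Its signals were 630.3 in fetal ductus and 1293 in oxygen-exposed fetal ductus against 9.7 in fetal aorta, and 435 in newborn ductus against 15.5 in newborn aorta, so both aorta arrays were far under the floor of 150 and the ductus arrays above it. The fetal ductus was at least 4.21-fold higher, and the 4 probe sets of Nppa went the same way. Nppb, the related brain natriuretic peptide gene, had 192 in fetal ductus and 126 in oxygen-exposed fetal ductus against 26.5 in fetal aorta, and 138 in newborn ductus against 30.8 in newborn aorta, of which only the fetal ductus was above the floor.

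**Figure D1:**
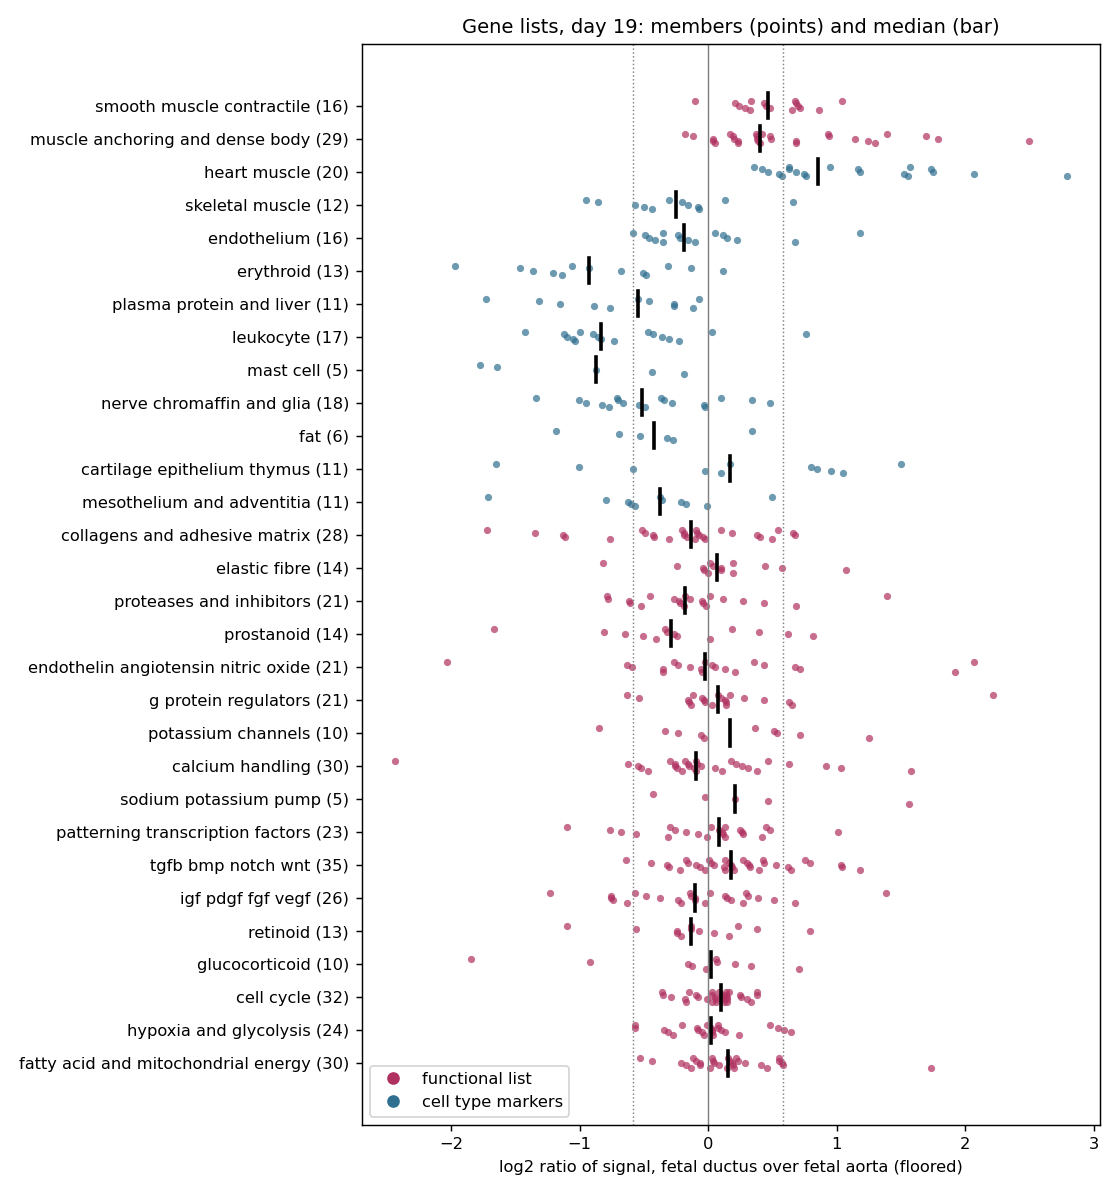
Log2 ratios of fetal ductus over fetal aorta for the compared members of 30 gene lists (points; red for functional lists, blue for cell type markers; the number of members in brackets), with the median of each list as a black bar, and dotted lines at 1.5-fold either way. Heart muscle (median 0.86), contractile smooth muscle (0.47) and muscle anchoring genes (0.41) lie to the right. Erythroid (-0.93), mast cell (-0.88) and leukocyte (-0.83) markers lie to the left, and no cell cycle gene passes 1.5-fold. Above the floor in fetal aorta alone were 2 of 13 erythroid, 3 of 5 mast cell and 6 of 17 leukocyte members. Of the 20 heart muscle members, 5 were above it in fetal ductus alone.

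Many contractile genes are switched on through the CArG box, a short A and T rich element bound by serum response factor, whose own gene Srf had 846 in fetal ductus against 618 in fetal aorta (log2 ratio 0.45, with the other compared probe sets at 0.16 and -0.20). Promoters of 300 bases, from 250 before to 50 after the start of transcription, were taken from RefSeq (build GRCr8) and searched on both strands for exact CArG boxes. One was present in 1 of 12 contractile, 1 of 23 anchoring and 2 of 18 heart genes with a promoter in the table, and in 2 of 11 skeletal muscle genes, a list with a median log2 ratio of -0.25, against 91 of 6323 genes compared (1.44%) and 451 of 27457 promoters in all (1.64%). The 1 of the contractile list was Srf itself, so no gene of a contractile protein on that list had an exact box in this window. The 4 are shown with the boxes in capitals, since they are the members of the contractile, anchoring and heart lists in which the letters were found. A match describes these letters only, and most members had none in this window.
Srf, chr9:21923826-21924125, plus strand: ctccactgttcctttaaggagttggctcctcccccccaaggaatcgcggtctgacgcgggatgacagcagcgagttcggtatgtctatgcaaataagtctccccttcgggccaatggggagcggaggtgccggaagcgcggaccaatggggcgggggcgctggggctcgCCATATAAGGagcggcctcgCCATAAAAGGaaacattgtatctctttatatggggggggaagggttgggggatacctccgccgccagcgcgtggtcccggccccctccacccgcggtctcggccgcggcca
Ldb3, chr16:9924630-9924929, minus strand: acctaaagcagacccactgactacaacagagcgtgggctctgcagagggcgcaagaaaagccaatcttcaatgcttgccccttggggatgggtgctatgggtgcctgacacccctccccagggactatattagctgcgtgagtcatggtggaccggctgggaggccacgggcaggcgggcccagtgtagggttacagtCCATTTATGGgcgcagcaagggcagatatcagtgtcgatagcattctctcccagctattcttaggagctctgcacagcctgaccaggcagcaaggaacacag
Myl3, chr8:119616844-119617143, plus strand: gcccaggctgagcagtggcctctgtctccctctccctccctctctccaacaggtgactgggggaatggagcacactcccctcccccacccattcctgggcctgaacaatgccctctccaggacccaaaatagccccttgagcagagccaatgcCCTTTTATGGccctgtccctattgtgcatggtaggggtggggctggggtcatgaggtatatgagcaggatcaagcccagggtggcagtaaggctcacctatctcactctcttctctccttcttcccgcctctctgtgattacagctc
Actc1, chr3:121271778-121272077, minus strand: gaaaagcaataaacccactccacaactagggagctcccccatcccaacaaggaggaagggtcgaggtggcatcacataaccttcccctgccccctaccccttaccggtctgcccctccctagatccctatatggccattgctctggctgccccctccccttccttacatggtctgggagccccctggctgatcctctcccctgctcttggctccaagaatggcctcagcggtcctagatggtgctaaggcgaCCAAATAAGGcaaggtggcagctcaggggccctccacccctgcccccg
Srf carries a pair of boxes 81 and 61 bases before the start. In Ldb3, an anchoring protein of the Z-disc, and Myl3 the box begins 52 and 97 bases before it. In Actc1 it begins 2 bases after it. The log2 ratios of these genes were 0.45, 0.38, 1.75 (a bound) and 1.17, with all 4 probe sets of Ldb3 higher.

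Regulators of tone held single large differences rather than a shift of whole lists. Rgs5, which speeds the shut-off of G protein signals in arterial smooth muscle and pericytes, had 9334 in fetal ductus and 12079.7 in oxygen-exposed fetal ductus against 2009 in fetal aorta, and 20994 in newborn ductus against 7567 in newborn aorta. All 3 ductus arrays were above both aorta arrays, and the fetal ductus was 4.65-fold higher. The other 20 compared genes of G protein signalling had log2 ratios from -0.63 to 0.65, with adenylyl cyclase Adcy6 1.57-fold higher and the phosphodiesterase Pde4b 1.55-fold higher at the upper end and Gna12 1.55-fold lower (1.23-fold by the mean over probe sets) at the lower. The list median was 0.08.

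Among genes of angiotensin, endothelin and nitric oxide, 4 of 21 compared were at least 1.5-fold higher and 3 lower (median -0.02). Agtr2, the type 2 angiotensin receptor, had 594 in fetal ductus and 614 in oxygen-exposed fetal ductus against 2428 in fetal aorta, and 827 in newborn ductus against 1278 in newborn aorta. Each ductus array was below both aorta arrays, the fetal ductus was 4.09-fold lower, and the 2 probe sets of Agtr2 went the same way. The type 1 receptor Agtr1a, which mediates constriction, was 1.51-fold lower in fetal ductus (692 against 1044, 4 of 4 probe sets), yet had 1418 in newborn ductus against 792 in newborn aorta. Edn1, the precursor of the constrictor endothelin-1, had 413 in fetal ductus and 389.7 in oxygen-exposed fetal ductus against 258 in fetal aorta, and 672 in newborn ductus against 397 in newborn aorta (1.60-fold higher in the fetus). Gucy1b1, a subunit of the nitric oxide receptor guanylyl cyclase, was 1.65-fold higher, and its partner Gucy1a1 had a log2 ratio of 0.13. Nos2, the inducible nitric oxide synthase, had 567 in fetal ductus against 80.2 in fetal aorta (at least 3.78-fold higher), but its newborn signals were 515 against 431, so the low value was again that of the fetal aorta alone. Nos3, the endothelial synthase, had 354 against 452 and probe sets that disagreed in direction.

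Prostanoid genes were measured for 14 of 23 on the chips, and 9 were at the floor in both fetal vessels. Those 9 include Ptger4, the prostaglandin E receptor held to keep the ductus open (145 against 83.2), and Ptgs2, the inducible cyclooxygenase (78.6 against 65.3), so no difference in them was detectable. Of the 14, 2 were at least 1.5-fold higher and 3 lower. Ptgir, the prostacyclin receptor, had 206 in fetal ductus and 176 in oxygen-exposed fetal ductus against 653 in fetal aorta, and 165 in newborn ductus against 429 in newborn aorta. All 3 ductus arrays lay below both aorta arrays, and the fetal ductus was 3.17-fold lower. The prostaglandin F receptor Ptgfr (1.76-fold lower) and the phospholipase Pla2g4a (1.57-fold lower) were lower as well. Slco2a1, the transporter that clears prostaglandins from the blood, was 1.76-fold higher at its brightest probe set (1140.5 against 647), while the other had 348 against 342 (mean log2 ratio 0.42), and Ptgis, prostacyclin synthase, 1.54-fold higher (3808 against 2471). Ptgs1, the constitutive cyclooxygenase, had 368 in fetal ductus against 459 in fetal aorta, a log2 ratio of -0.32.

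Of 29 potassium channel genes on the chips 19 were at the floor on both arrays, among them Kcnma1 and Kcna2. Kcnk3, a background channel that sets the resting potential, had 375 in fetal ductus and 269 in oxygen-exposed fetal ductus against 158 in fetal aorta, and 575 in newborn ductus against 253 in newborn aorta, and was 2.38-fold higher in the fetal pair. Kcna5, a voltage-gated channel assigned to ductus oxygen sensing, had 299 in fetal ductus against 311 in fetal aorta, a log2 ratio of -0.06, whereas it had 335 in newborn ductus against 79 in newborn aorta, the last under the floor. Kcnj8 and Abcc9, the pore and the regulatory subunit of the vascular ATP-sensitive channel, were at 0.36 and 0.54 in the fetus and 1.25 and 1.67 in the newborn (log2 ratios). Kcnj11 was 1.64-fold higher. Kcnd3, a channel subunit of transient outward current, had 106 in fetal ductus, under the floor, against 269 in fetal aorta (at least 1.80-fold lower), and 497 in newborn ductus against 354 in newborn aorta. Of the 10 channels compared 2 were thus at least 1.5-fold higher and 1 lower (median 0.17).

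Calcium handling had 30 genes compared, 4 at least 1.5-fold higher and 2 lower, and a median of -0.09. Those higher were Cacna2d1, an accessory subunit of voltage-gated calcium channels (2.99-fold higher, 657 against 220.1), the sarcoplasmic calcium pump Atp2a2 (2.05-fold higher, 3 of 3 probe sets), the sodium-calcium exchanger Slc8a1 (1.89-fold higher, with 2 of 3 probe sets higher and a mean of 0.36) and Pln, which restrains that pump (at least 1.54-fold higher). By the mean over its 3 probe sets Atp2a2 was 1.65-fold higher. The pore subunit Cacna1c had 512 in fetal ductus against 546 in fetal aorta. The calcium pump Atp2b1 was at least 1.54-fold lower, with a second probe set at -0.05. Pcp4, a small protein that modulates calmodulin, was 5.40-fold lower, with signals of 160.0 in fetal ductus and 337 in oxygen-exposed fetal ductus against 864 in fetal aorta, and 402 in newborn ductus against 1749.9 in newborn aorta. Atp1b1, the beta-1 subunit of the sodium-potassium pump, had 5231 in fetal ductus and 5081 in oxygen-exposed fetal ductus against 1773 in fetal aorta, and 4746 in newborn ductus against 2133 in newborn aorta. It was 2.95-fold higher, its 3 probe sets agreed in direction, and the other pump genes lay between -0.43 (Fxyd6) and 0.47 (Atp1b2). Cacna2d1, Atp2a2, Slc8a1 and Pln are abundant in heart muscle, and the share of heart RNA in their ratios was not tested.

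**Figure D2:**
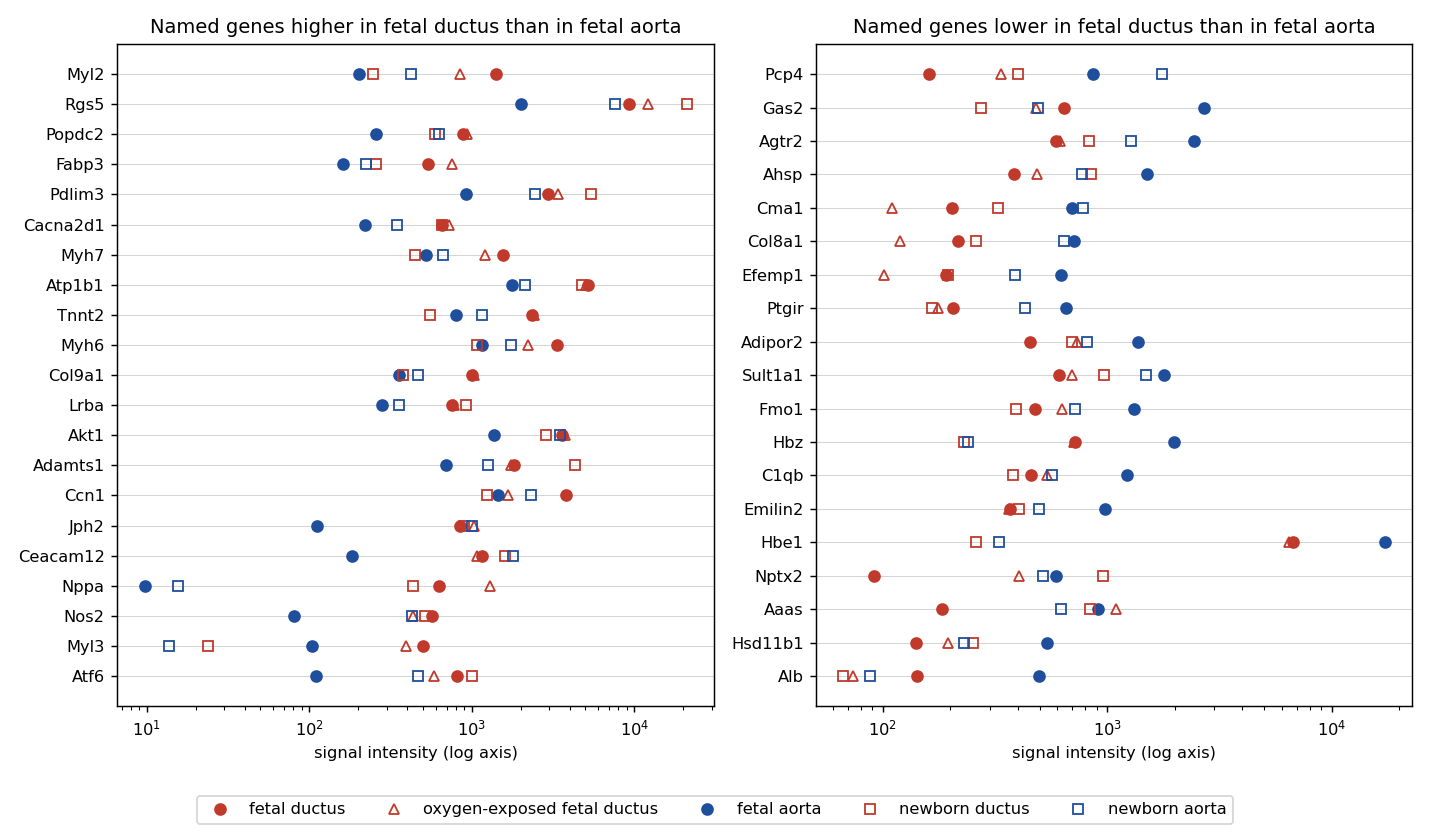
Signal intensity (log axis) of the genes with the largest differences in the fetal pair, higher (left) and lower in fetal ductus (right), in all 5 states, 1 array each. The genes below Ccn1 and below Hbe1 had the dimmer array under the floor. For Rgs5, Atp1b1 and Pdlim3 all 3 ductus signals (red) exceed both aorta signals (blue), and for Pcp4, Ptgir and Cma1 they all lie below them.

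Markers of blood and other cells were lower in the fetal ductus. Of 13 erythroid genes compared, 8 were at least 1.5-fold lower and 0 higher (median -0.93), and their summed signal was 57212 in fetal ductus against 86514 in fetal aorta. The embryonic globins Hbe1 and Hbz had 6741 in fetal ductus against 17356 in fetal aorta and 721 against 1986. Ahsp, a chaperone of alpha globin, was 3.92-fold lower, and Alas2, the first enzyme of heme synthesis in red cells, 2.31-fold lower. Adult beta globin, Hbb, had 26244 against 28810.3, though globin genes are close in sequence and can share probes. Plasma protein and liver genes had 0 of 11 higher and 5 lower at 1.5-fold (median -0.54, summed signal 2814 against 4934), with Afp (alpha-fetoprotein) 2.49-fold lower and Alb (albumin) at least 3.32-fold lower. Above the floor in fetal aorta alone were 2 of the 13 erythroid and 5 of the 11 plasma protein and liver genes. Such genes could only come out lower.

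Leukocyte markers had 10 of 17 at least 1.5-fold lower and 1 higher, with a median of -0.83 that was -0.47 over the 11 genes above the floor on both arrays and was -0.33 with the floor at 2 times its value. The complement genes C1qa, C1qb and C1qc of macrophages were 2.15-fold, 2.68-fold and 2.07-fold lower, and Csf1r, the macrophage growth factor receptor, 1.78-fold lower. By the mean over its 2 probe sets C1qc was 1.62-fold lower. Other members of the list differed less, with log2 ratios of 0.03 for Cd68, -0.31 for Lyz2 and -0.23 (a bound) for Laptm5. By the mean over probe sets, 8 of the 17 were at least 1.5-fold lower and 0 higher. Cd74, the invariant chain of antigen presentation, was 1.70-fold higher (1373 against 808, with a mean log2 ratio of 0.57 over both probe sets), unlike most of the list. The mast cell proteases Cma1 (chymase) and Cpa3 had 203 in fetal ductus against 695 in fetal aorta and 70.4 against 467. Their newborn signals were 327 against 779.8 and 272 against 494, and for both all 3 ductus arrays were below both aorta arrays.

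Nerve and chromaffin genes had 8 of 18 at least 1.5-fold lower and 0 higher (median -0.51). Of the 18, 7 were above the floor in fetal aorta alone, so they could only come out lower. In fetal ductus alone 1 was above it and could only come out higher. Th (tyrosine hydroxylase, the first enzyme of catecholamine synthesis) had 253 in fetal ductus against 638 in fetal aorta, and the neuronal genes Prph and Stmn2 had 264 against 531 and 381 against 737. The list did not move as one, since 3 of the 18 had a higher signal in fetal ductus. They were Gal (log2 ratio 0.48, a bound), the chromaffin enzyme Pnmt (0.34) and Ngfr (0.10, and -0.01 by the mean over 2 probe sets). Markers of mesothelium and adventitia had 4 of 11 lower and 0 higher, with Thy1 1.73-fold lower. Endothelial markers had 2 of 16 higher and 0 lower, with a median of -0.19: Cdh5 (VE-cadherin) had 1434 against 1830.0 and Pecam1 1323 against 1195, whereas Thbd (thrombomodulin) was 2.27-fold higher with 1 of its 3 probe sets the other way (mean log2 ratio 0.57). In the newborn pair the medians of the erythroid, leukocyte and nerve lists were -0.01, -0.05 and 0.17. The arrays are scaled to a common mean, and the part that blood, nerve and leukocyte RNA in the fetal aorta plays in the ratios of other genes was not tested.

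**Figure D3:**
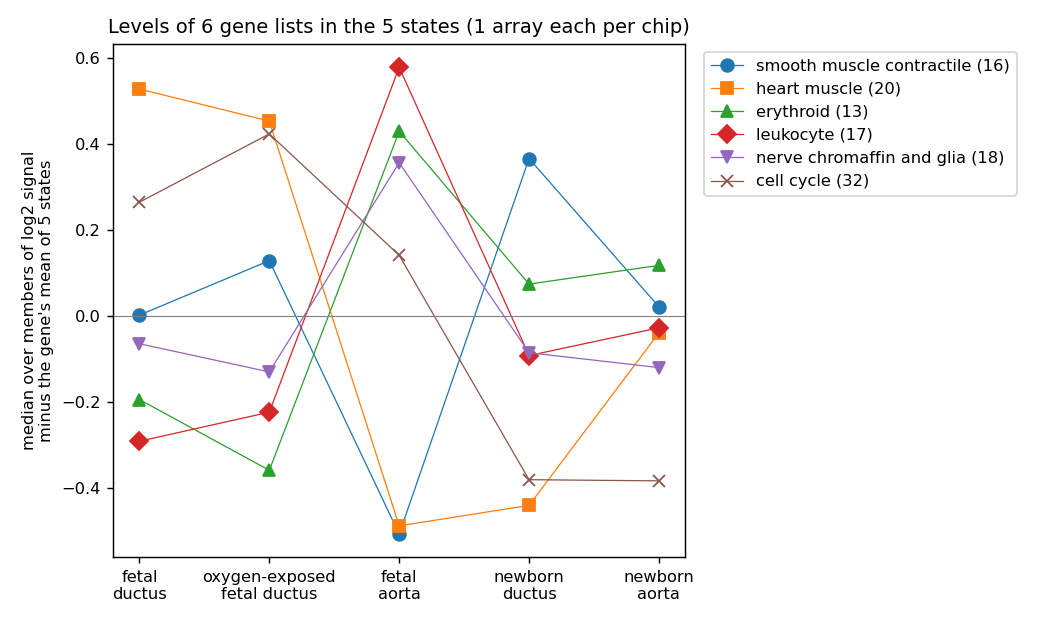
Median over the compared members of 6 gene lists of the log2 signal minus each gene's mean over the 5 states, by state (1 array per state and chip; lines only join the points of a list). Heart muscle genes stand at 0.53 in fetal ductus and -0.49 in fetal aorta and at -0.44 in newborn ductus and -0.04 in newborn aorta, leukocyte, erythroid and nerve genes peak in fetal aorta, and cell cycle genes differ by stage more than by vessel. Members had to exceed the floor in the fetal pair, which favours such peaks. In that pair 6 of 17 leukocyte, 2 of 13 erythroid and 7 of 18 nerve genes did so in fetal aorta alone. Of 20 heart muscle genes, 5 did so in fetal ductus alone.

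Matrix genes did not move as a group between the fetal vessels. Eln, elastin, had 25915 in fetal ductus against 25861 in fetal aorta, and the 4 probe sets of Col1a1 had log2 ratios of -0.27 to -0.18. Col3a1 had -0.19 at its brightest probe set but -0.70, -0.78 and -1.51 at the other 3, a mean 1.73-fold lower. Fn1 (fibronectin) had -0.09 at its brightest and -0.75 to 0.21 at the other 4. Of 28 genes of collagens and adhesive matrix, 2 were at least 1.5-fold higher and 5 lower (median -0.13). Those lower were Col8a1, a short-chain collagen of vessel walls (3.30-fold lower, 216 against 714), Spp1 (osteopontin, 2.55-fold lower), Col12a1 (2.18-fold lower), Col6a1 (2.17-fold lower) and Nid1 (1.70-fold lower, and 1.46-fold by the mean over 3 probe sets). Those higher were the laminin Lama5 (1.60-fold higher) and Tnc (tenascin C, 1.58-fold higher, and 1.34-fold by the mean over probe sets). Laminins Lama5, Lamb2 and Lamc1 had all 3 ductus arrays above both aorta arrays, as did Tnc and Col1a2, although just 2 of the 6 probe sets of Col1a2 were higher in fetal ductus. As many genes of the list, Col6a1, Col8a1, Col12a1, Spp1 and Postn, had all 3 ductus arrays below both aorta arrays. Among elastic fibre genes Ltbp4, which binds latent TGF-beta, was 2.11-fold higher (10037 against 4759) and Mfap5 1.76-fold lower, with the other 12 within 1.5-fold. Adamts1, a protease of proteoglycans, had 1824 in fetal ductus and 1746 in oxygen-exposed fetal ductus against 694 in fetal aorta, and 4325 in newborn ductus against 1268 in newborn aorta, and was 2.63-fold higher in the fetal pair. Plat, the tissue plasminogen activator, was 1.61-fold higher, while Ctsk (cathepsin K) was 1.72-fold lower and Serpinf1 1.72-fold lower.

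Signals of TGF-beta, BMP, Notch and Wnt had 7 of 35 genes higher by 1.5-fold or more and 1 lower by as much (median 0.18). Tgfbi, a matrix protein induced by TGF-beta, had 1189 in fetal ductus and 1052 in oxygen-exposed fetal ductus against 524 in fetal aorta, and 1837 in newborn ductus against 473 in newborn aorta. Bmp4 was 2.05-fold higher (1028 against 501, both probe sets), the Wnt receptor Fzd1 2.06-fold higher, the inhibitory Smad7 at least 1.73-fold higher, and the Wnt antagonists Sfrp2 and Frzb 1.69-fold and 1.56-fold higher (Frzb 1.42-fold by the mean over probe sets). Jag1, a Notch ligand needed for ductus smooth muscle in the mouse, was 1.54-fold higher (1025 against 667). The receptor Tgfbr1 was the one at least 1.5-fold lower (557 against 865). No probe set is assigned to Notch3 alone.

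Of 23 patterning transcription factors 1 was at least 1.5-fold higher, Gata4 (527 against 261, with a second probe set at a log2 ratio of 0.06), and 3 were lower, Meox2 (404 against 863), Prrx1 (513 against 868) and Msx2 (123 against 239). Tfap2b, the factor whose mutation causes a persistent ductus in people, had 330.1 in fetal ductus and 399.6 in oxygen-exposed fetal ductus against 141 in fetal aorta, and 414 in newborn ductus against 127 in newborn aorta. Both aorta values were under the floor of 242 and all 3 ductus values above it, so that the fetal ductus was at least 1.37-fold higher. Growth factor genes had 2 of 26 higher and 5 lower: Ccn1, a matrix-associated growth regulator, was 2.61-fold higher (3789 against 1453) and Igf1r 1.60-fold higher (its 3 probe sets ran from -0.41 to 0.67), while Vegfc, Igf1, Egfr, Angpt2 and Igfbp4 were between at least 2.34-fold and 1.55-fold lower. In the newborn pair Ccn1 had 1248 against 2321.

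Several processes hardly separated the vessels. Of 32 cell cycle genes 0 were at least 1.5-fold either way (range -0.36 to 0.39), among them Mki67 (4200.4 against 4473) and Top2a (3092 against 2856). Hypoxia and glycolysis genes had 2 of 24 higher, the glucose transporter Slc2a1 (1.51-fold higher, and 1.45-fold by the mean over probe sets) and the oxygen sensor Egln3 (1.56-fold higher), and 0 lower. Genes of fatty acid oxidation and mitochondria had 1 of 30 higher, Fabp3, and 0 lower, and retinoid genes 1 higher and 1 lower of 13. Of 10 glucocorticoid genes Errfi1 was 1.63-fold higher (1.37-fold by the mean over probe sets), Glul 1.89-fold lower (1.49-fold) and Hsd11b1, the enzyme that activates the hormone, at least 3.60-fold lower (141 against 539). Fat genes were 6 of 15 above the floor and had a median of -0.42 (newborn pair -2.24, over 14 genes). In the list of cartilage, epithelium and thymus 5 of 11 genes were higher and 2 lower. Of the cartilage genes, Col9a1 was 2.84-fold higher (1011 against 356), Col2a1 2.07-fold higher and Acan at least 1.74-fold higher. Col11a1 was 2.00-fold lower at its brightest probe set. Its 3 probe sets ran from -1.17 (a bound) to 0.40 (log2) with a mean of -0.59, so they disagreed. The lung surfactant gene Sftpc had 16.9 in fetal ductus and 52.5 in oxygen-exposed fetal ductus against 469 in fetal aorta, at least 3.13-fold lower, whereas it had 286 in newborn ductus against 14.0 in newborn aorta.

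By a rule of size, 21 genes with higher and 19 with lower signal were singled out in the fetal pair, and the newborn pair gives values for them that the choice did not use. Of the 21 higher, 8 were at least 1.5-fold higher in newborn ductus than in newborn aorta, 4 at least 1.5-fold lower and 9 in between (all genes compared there, 6.16% and 5.98%). Those in between include Myl3, which was under the floor in both newborn vessels and so not measured there. Of the 19 lower, 10 were again lower, 1 higher and 8 in between, where Hbz and Alb were likewise under the floor in both newborn vessels. Besides those named so far, the higher genes were Lrba (754 in fetal ductus and 776 in oxygen-exposed fetal ductus against 279 in fetal aorta, and 924 in newborn ductus against 359 in newborn aorta), which scaffolds vesicle traffic, the kinase Akt1 (3611 against 1373, newborn 2851 against 3504, with a second fetal probe set at 1467 against 1341 and a mean 1.70-fold higher), Ceacam12 (1158 against 184, newborn 1592 against 1809) and the stress transcription factor Atf6 (808 against 109.6, newborn 998 against 468). The lower ones were Gas2, a growth arrest protein that binds actin (642 in fetal ductus and 483 in oxygen-exposed fetal ductus against 2703 in fetal aorta, and 275 in newborn ductus against 493 in newborn aorta), the fibulin family gene Efemp1 (191 in fetal ductus and 101 in oxygen-exposed fetal ductus against 626 in fetal aorta, and 195 in newborn ductus against 390.2 in newborn aorta), Emilin2 (368 against 976, newborn 404 against 499), the adiponectin receptor Adipor2 (3.01-fold lower, and 1.70-fold by the mean over 3 probe sets), the detoxifying enzymes Sult1a1 (2.94-fold lower) and Fmo1 (2.76-fold lower), the synaptic protein Nptx2 (91.7 against 593, newborn 958 against 518) and the nuclear pore protein Aaas (184 against 912, newborn 838 against 625).

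Over probe sets, 32 of the 143 at least 2-fold higher in fetal ductus were also 2-fold higher in newborn ductus, which is 22.4% of the fetal and 18.0% of the 178 newborn ones (1.26% of 14179 probe sets compared there). On the lower side 12 were shared, 9.23% of the 130 fetal and 6.67% of the 180 newborn ones (1.27%). Over genes, 19 of the 72 higher and 7 of the 73 lower ones were shared with the 94 higher (1.25%) and 89 lower (1.18%) genes of the newborn pair. At least 1.5-fold, 44 of the 143 went the same way and 27 the opposite way in the newborn pair, and of the 130 lower ones 30 went the same and 9 the opposite way. The share of all probe sets at that step was not counted. Over genes, 26 of the 72 higher ones went the same way and 11 the opposite way. Of the 73 lower genes, 17 went the same and 5 the opposite way. Among all genes of the newborn pair 6.16% were that much higher and 5.98% lower.

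**Figure D4:**
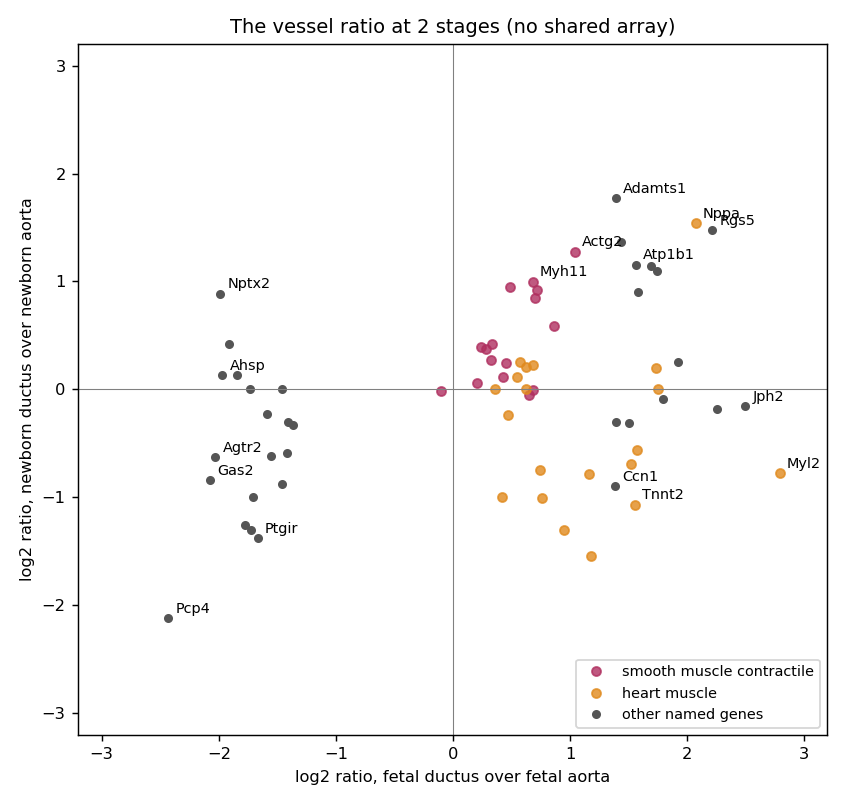
Log2 ratio of ductus over aorta in the fetus (x axis) and in the newborn (y axis) for the compared members of the smooth muscle contractile (red) and heart muscle (orange) lists and the other genes singled out by size (grey); a y value of 0 includes genes at the floor in both newborn vessels. Actg2, Rgs5, Nppa and Adamts1 lie upper right and Pcp4 and Ptgir lower left, whereas Myl2, Tnnt2 and Ccn1 lie lower right.

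One fit tested the difference between the vessels over both stages: limma on 4 arrays per chip (fetal and newborn ductus, fetal and newborn aorta), with a term for vessel and a term for stage. What these terms leave over, 1 residual degree of freedom, was the error of a probe set, so a vessel ratio that changes with stage counts as noise. Limma drew this error toward a variance estimated over all probe sets of the chip. That variance weighed 6.6, 9.7 and 5.9 degrees of freedom on chips A, B and C, so SEs and p-values rest mostly on it. Of 13811 probe sets tested, 5 passed a Benjamini-Hochberg adjusted p of 0.05, 2 higher in ductus (0.0145%) and 3 lower (0.0217%), while 1071 had an unadjusted p under 0.05. Pcp4 was the one with a gene name, with an effect of -2.28 (log2, SE 0.20, limma adjusted p = 0.0192), lower in ductus at both stages. With oxygen-exposed fetal ductus as a further array that call was lost (limma adjusted p = 0.586). The other 4 are not assigned to a gene. One on chip B had 5766 in fetal ductus against 790.1 in fetal aorta and 7089 in newborn ductus against 1427 in newborn aorta (effect 2.59, SE 0.23, limma adjusted p = 0.00473). One on chip C had 201 in fetal ductus, under the floor, against 1869 in fetal aorta and 266 in newborn ductus against 1696 in newborn aorta (effect -2.81, SE 0.18, limma adjusted p = 0.00951). The third, on chip C, had 2724 in fetal ductus against 594 in fetal aorta and 8557 in newborn ductus against 2348 in newborn aorta (effect 2.03, SE 0.19, limma adjusted p = 0.0374). The last, on chip B, had 201 in fetal ductus, under the floor, against 1021 in fetal aorta and 259.9 in newborn ductus against 832 in newborn aorta (effect -1.88, SE 0.23, limma adjusted p = 0.0192). In oxygen-exposed fetal ductus these 4 probe sets had 6798, 197, 1684 and 637. Lrba (effect 1.40, limma adjusted p = 0.0876), Nppa (1.81, 0.0876), Rgs5 (1.84, 0.0913), Adamts1 (1.58, 0.0913), Synpo2 (1.26, 0.0913), Ptgir (-1.52, 0.0913), Cma1 (-1.52, 0.0913) and Col8a1 (-1.51, 0.0913) missed the threshold, as did Atp1b1 (1.36, 0.109) and Actg2 (1.16, 0.149). Myl2, whose ratio differed in sign between the stages, had an effect of 1.01 with an SE of 0.67 (limma adjusted p = 0.790). The number of calls was 21 after quantile normalization, 47 with an intensity trend and 1, the probe set on chip C with an effect of -2.81, with oxygen-exposed fetal ductus as a further fetal ductus array. The 10 genes from Lrba to Actg2 that missed the threshold all passed it with the intensity trend (limma adjusted p from 0.000275 for Actg2 to 0.0427 for Lrba), and with the further array their adjusted p ran from 0.358 to 0.641.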

How the data were processed

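RNA of fetal ductus and fetal aorta was read on 3 chip types, 1 array per state and chip. The deposited values are linear signal intensities, made by the authors from the scanned arrays. On chip A, MAS5 is named in the submitters' processing notes for every array but the fetal aorta. The software of that array and of chips B and C is not given in the sources used here. Trimmed means (2% at each end) were 500.3 to 500.9 on all 15 deposited arrays, and further scaling to a common one used factors of 0.99992 to 1.0001.

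After 59 control probe sets per chip were left out, 26202 remained, of which 18178 had a single gene, 391 had several and 7633 had no gene. Symbols came from the platform annotation, and 18122 were found by gene number in a RefSeq gene table (56 were not), for 10969 named genes. Signals were floored at the pooled chip median before log2. Ratios were compared with no test, at 2-fold for probe sets and 1.5-fold for list members. Named genes were, each way, the 15 with the largest fold that exceeded the floor in both vessels, reached the chip's 75th percentile in 1 of them and had probe sets agreeing in direction, up to 6 more with the dimmer array at the floor, leading members of each list, and genes usual in ductus work. The lists and these choices were made with earlier results of these data known. The vessel effect was fitted with limma 3.58.1 in R 4.3.3 on probe sets that exceeded the floor in 2 or more of 4 arrays, p-values were adjusted over the 3 chips together, and the fit was tested on simulated data. Promoters are from RefSeq. No state has a second array on a chip, and nothing says that arrays hold separate animals. The p-values therefore measure no spread between like arrays or animals. They rest on what the vessel and stage terms leave over, which may be technical or a true difference between stages, and the number of arrays limits the precision. Alternatives were the floor, the scaling, the filter, the choice of probe set, the fit's prior and adjustment, and the oxygen-exposed ductus array.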

Additional observations from a re-analysis of the deposited data

Results flagged for a closer look

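The 6 results are 1 list median and those genes singled out by size that reversed between the pairs. Each was at least 1.5-fold one way in the fetal pair and at least 1.5-fold the other way in the newborn pair. Other list members described above, such as Actc1, Agtr1a and Sftpc, reversed by as much and are not repeated here. These differences, at 1 array per state and chip, were not tested. The median log2 ratio of the heart muscle genes was 0.86 in the fetus and -0.72 in the newborn. Within that list Myl2 had 2.79 in the fetus and -0.77 in the newborn, Tnnt2 had 1.56 and -1.07, and Myh6 had 1.53 and -0.69. Outside it, Ccn1 had 1.38 in the fetus and -0.90 in the newborn. Nptx2, the one gene of the 6 results that was lower in fetal ductus, had -1.99 in the fetus, a bound, and 0.89 in the newborn.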

How the results depend on the processing

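Probe sets at least 2-fold higher numbered 143 and at least 2-fold lower 130; they numbered 329 and 309 with the floor at 0.5 times, 74 and 59 with the floor at 2 times its value, and 86 were lower where both arrays had to be above the floor. The leukocyte median of -0.83 was -0.33 with the floor at 2 times its value and -0.47 over genes above the floor on both arrays. Medians of the 7 lists that the text leads with kept their sign under every alternative run, with ranges of 0.42 to 0.66 for contractile smooth muscle, 0.39 to 0.60 for anchoring genes, 0.76 to 1.06 for heart muscle, -0.996 to -0.63 for erythroid, -0.83 to -0.46 for plasma protein, -0.83 to -0.33 for leukocyte and -0.77 to -0.44 for nerve genes. These ranges include the oxygen-exposed fetal ductus in place of the fetal ductus, against the same aorta array, an alternative added after the data were seen. Of 288 recomputed ratios of named genes 41 moved by more than the spread between stages, 24 of them with the floor at 2 times its value. The median of all genes shifted from -0.02 to 0.05 with scaling to a common median. The vessel fit called 5 probe sets, and 8 with the floor at 0.5 times, 3 with the floor at 2 times its value, 21 after quantile normalization, 47 with an intensity trend and 1 with oxygen-exposed ductus as a further array, where the call on Pcp4 was lost; the cause of these differences was not tested. No array could be left out of the fetal pair, which has 1 per side and chip. The vessel fit compares the vessels within each stage; no pairing by replicate number was possible, since every state has a single array per chip. Signals near the floor limit what can be read of prostanoid receptors and potassium channels.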
